A study of Mus musculus with 12 samples.

Results

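The 8 genes described here encode the NF-E2 family of transcription factors in the mouse: the cap'n'collar (CNC) factors *Nfe2*, *Nfe2l1* and *Nfe2l2*, their small Maf partners *Mafk*, *Mafg* and *Maff*, and the related repressors *Bach1* and *Bach2*. They were taken by name, and each was read from its only probe set with 1 gene symbol. They are 8 of 19937 genes with such a probe set. Expression was measured in HSPC, MEG and ERY of mouse fetal liver at E14.5, with 4 arrays of each population and no treatment or mutation named in the labels. HSPC, which carry the label HSC, were uncultured cells from which lineage-positive cells (Ter119 and CD71 among the antigens) had been removed and which had then been sorted for Sca1. ERY were isolated with beads against Ter119, a surface antigen of the erythroid lineage, and were not cultured either. MEG were grown in culture from KIT-positive fetal liver progenitors and enriched with beads on CD41. Only MEG had been in culture, so culture and lineage cannot be told apart. The values are log2 levels, so that 1 unit is a 2-fold change. In these bulk samples fewer cells of a type and less RNA per cell cannot be told apart.

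CNC and BACH proteins do not bind DNA as monomers: each pairs with a small Maf protein, and the pair binds a Maf recognition element whose core resembles that of AP-1. Small Maf proteins lack a transactivation domain, so a pair with p45 NF-E2 (from *Nfe2*), NRF1 (*Nfe2l1*) or NRF2 (*Nfe2l2*) activates, whereas a pair of small Maf proteins, or one with BACH1 or BACH2, represses the same kind of site. In blood cells NF-E2 is known for platelet formation and for globin regulation, NRF2 for the response to oxidants, and BACH1 as a repressor of heme and iron genes that is released by heme itself.

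The populations carried the markers of their labels. The summed level of 7 megakaryocyte markers was 15.6 to 15.7 on the MEG arrays, against 11.7 to 12.8 in HSPC and 10.9 to 11.9 in ERY. These markers include *Itga2b*, the gene of CD41, on which MEG were enriched. The summed level of 9 erythroblast markers was 15.4 to 15.5 in ERY and at most 11.6 on the other arrays, and that of 9 stem and progenitor markers was 13.2 to 13.7 in HSPC and at most 12.7 elsewhere. Among the latter, *Meis1* was higher in MEG (10.77) than in HSPC (8.96), and *Mecom* was below the array background in all populations. Hepatocyte markers were high in the uncultured cells, with a summed level of 14.4 to 15.003 in ERY, 12.2 to 14.1 in HSPC and 8.72 to 9.15 in MEG. The summed level of 9 neutrophil and monocyte markers was 13.9 to 14.3 in HSPC, 8.97 to 12.2 in MEG and 9.15 to 9.93 in ERY, with 8, 7 and 4 of them at or above the array background described below, and the part of other cells in the differences from HSPC was not tested. The HSPC arrays stood apart from each other: arrays 1 and 4 correlated at 0.764 over the genes tested, arrays 3 and 4 at 0.989, and the ERY arrays at 0.979 to 0.994 among themselves. The MEG arrays correlated at 0.891 to 0.977 among themselves. HSPC array 1 correlated at 0.814 with MEG array 2 and at 0.838 with MEG array 3, more than with HSPC array 4. Comparisons with HSPC were therefore also made without arrays 1 and 2, or 3 and 4, of that population, and the values are given for the members and for each list count that moved by over 1.5 times. The size of a difference between MEG and ERY does not rest on the HSPC levels. Its SE and p value do depend on the HSPC spread, since 1 spread per gene was estimated over all 12 arrays.

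*Nfe2l2*, *Mafk*, *Mafg* and *Bach1*, the 4 members past the thresholds for change given below, are shown with the 250 bases before their RefSeq start sites (GRCm38.p6), read 5′ to 3′ in the direction of the gene, since some genes of CNC and small Maf factors are known to be bound by such factors. Capitals mark matches on either strand to TGACNNNGC, a short form of the element bound by CNC and small Maf pairs. The windows are chr2:75704664-75704913 on the minus strand for *Nfe2l2*, chr5:139791286-139791535 on the plus strand for *Mafk*, chr11:120633548-120633797 on the minus strand for *Mafg*, and chr16:87698704-87698953 on the plus strand for *Bach1*.
Nfe2l2: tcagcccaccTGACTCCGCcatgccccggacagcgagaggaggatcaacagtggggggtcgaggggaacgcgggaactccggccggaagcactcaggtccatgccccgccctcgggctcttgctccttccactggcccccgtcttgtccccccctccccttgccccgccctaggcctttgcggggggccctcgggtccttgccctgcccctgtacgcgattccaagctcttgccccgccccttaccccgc
Mafk: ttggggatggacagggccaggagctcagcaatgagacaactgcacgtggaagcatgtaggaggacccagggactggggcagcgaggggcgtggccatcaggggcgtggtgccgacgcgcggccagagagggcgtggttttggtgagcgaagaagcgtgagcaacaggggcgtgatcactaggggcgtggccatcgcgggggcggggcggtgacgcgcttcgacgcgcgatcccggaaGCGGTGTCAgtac
Mafg: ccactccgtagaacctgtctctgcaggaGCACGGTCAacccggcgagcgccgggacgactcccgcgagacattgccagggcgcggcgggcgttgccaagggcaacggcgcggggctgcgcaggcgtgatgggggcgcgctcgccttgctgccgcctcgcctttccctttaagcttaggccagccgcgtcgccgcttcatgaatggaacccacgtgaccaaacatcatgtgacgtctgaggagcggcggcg
Bach1: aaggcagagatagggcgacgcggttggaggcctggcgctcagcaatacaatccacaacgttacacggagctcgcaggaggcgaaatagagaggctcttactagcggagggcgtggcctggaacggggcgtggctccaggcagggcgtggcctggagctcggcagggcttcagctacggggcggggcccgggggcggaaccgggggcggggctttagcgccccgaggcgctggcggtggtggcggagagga
The element begins at base -240 from the start site of *Nfe2l2*, at -222 from that of *Mafg* and at -13 from that of *Mafk*, where it overlaps by 1 base a match to the ETS motif CCGGAAG. The *Bach1* window holds no match to it, but holds 7 matches to the KLF motif CCNCNCCC. The *Mafk* window holds 6 such KLF matches, the *Nfe2l2* window 4 and the *Mafg* window 1. In all promoter windows of this length, 10.2% hold the CNC element, 45.9% the KLF motif and 6.91% the ETS motif. Among the 7 members with a window, 1 of the *Maff* windows also holds the CNC element, and no window of a member holds TGACTCA, the core shared by NF-E2 and AP-1, which 4.46% of all windows hold. A match is a description of letters only, and binding was not analysed here.

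*Nfe2*, which encodes the hematopoietic p45 subunit of NF-E2, was far above the array background in all 3 populations, which differed by less than 2-fold. Its levels on arrays 1 to 4 were 9.77, 10.78, 11.09 and 11.12 in HSPC, 10.87, 11.17, 11.15 and 10.45 in MEG, and 11.31, 11.59, 11.18 and 11.30 in ERY. The ERY arrays lay above all others, though their lowest was only just above the highest MEG array, and the HSPC and MEG arrays overlapped. The means rose from 10.69 ± 0.63 in HSPC through 10.91 ± 0.33 in MEG to 11.34 ± 0.17 in ERY (SD, n = 4). No difference between neighbours in this order passed the test, at 0.22 (SE 0.28, adjusted p = 0.530 by limma) for MEG over HSPC and -0.43 (SE 0.28, adjusted p = 0.242 by limma) for MEG over ERY in log2 fold change. The change from HSPC to ERY was 0.65 (SE 0.28, adjusted p = 0.0643 by limma). That last value depended on the HSPC arrays. It was 0.24 without HSPC arrays 1 and 2, and 1.07 with an adjusted p of 0.0106 by limma without arrays 3 and 4, which passes both thresholds.

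*Nfe2l1*, the broadly expressed gene of NRF1, which is known for the control of proteasome genes, differed by less than 2-fold. Its levels were 8.97, 9.001, 8.60 and 8.62 on the HSPC arrays, 9.62, 9.23, 9.36 and 8.96 on the MEG arrays, and 9.31, 9.39, 9.23 and 9.17 on the ERY arrays. All ERY arrays were above all HSPC arrays, and MEG array 4 fell into the HSPC range. The means were 8.80 ± 0.22, 9.29 ± 0.28 and 9.27 ± 0.09 (SD, n = 4). The log2 fold change was 0.49 (SE 0.18, adjusted p = 0.0312 by limma) for MEG over HSPC and 0.47 (SE 0.18, adjusted p = 0.0370 by limma) for ERY over HSPC, past the FDR but not 2-fold, and MEG differed from ERY by 0.02 (SE 0.18, adjusted p = 0.947 by limma). Without HSPC arrays 3 and 4 these changes from HSPC were 0.30 and 0.29, and neither passed the FDR.

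*Nfe2l2*, which encodes NRF2, the activator of antioxidant genes, was highest in MEG. Its levels were 11.88, 11.65, 11.69 and 11.25 on the MEG arrays, 10.16, 10.03, 10.22 and 10.30 on the ERY arrays, and 10.29, 9.78, 8.65 and 8.22 on the HSPC arrays. The MEG arrays were above all others, whereas ERY and HSPC overlapped, with HSPC arrays 1 and 2 near the ERY level and arrays 3 and 4 far below. The mean was 11.62 ± 0.27 in MEG, 10.18 ± 0.11 in ERY and 9.23 ± 0.96 in HSPC (SD, n = 4). *Nfe2l2* rose 5.22-fold from HSPC to MEG (log2 fold change 2.38, SE 0.36, adjusted p = 0.000144 by limma) and was 2.71-fold higher in MEG than in ERY (log2 fold change 1.44, SE 0.36, adjusted p = 0.00565 by limma). The change from HSPC to MEG was 3.19 without HSPC arrays 1 and 2 and 1.58 without arrays 3 and 4, past the thresholds both ways. From HSPC to ERY the log2 fold change was 0.95 (SE 0.36, adjusted p = 0.0418 by limma), short of 2-fold. It passed without HSPC array 1 (1.30) or array 2 (1.13) and reached 1.75 without both, but was 0.14 without arrays 3 and 4.

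*Mafk*, the small Maf gene whose product was found as the p18 subunit of NF-E2, was highest in ERY. Its levels were 9.84, 10.23, 9.93 and 10.01 in ERY, 9.20, 8.95, 8.81 and 8.31 in MEG, and 7.99, 8.34, 8.43 and 8.42 in HSPC. All ERY arrays were above all others, and of the MEG arrays only array 4 fell into the HSPC range. The means were 10.003 ± 0.17 in ERY, 8.82 ± 0.37 in MEG and 8.30 ± 0.21 in HSPC (SD, n = 4). *Mafk* rose 3.27-fold from HSPC to ERY (log2 fold change 1.71, SE 0.20, adjusted p = 1.33e-05 by limma) and was 2.27-fold lower in MEG than in ERY (log2 fold change -1.19, SE 0.20, adjusted p = 0.000300 by limma). The difference between MEG and HSPC, 0.52 (SE 0.20, adjusted p = 0.0419 by limma), did not reach 2-fold. It was 0.39 (adjusted p = 0.145 by limma) without HSPC arrays 1 and 2, which loses the FDR, and 0.65 without arrays 3 and 4. The rise to ERY was 1.58 without HSPC arrays 1 and 2 and 1.84 without arrays 3 and 4.

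*Mafg*, known as the main small Maf gene of megakaryocytes, rose in both lineages. Its levels were 8.30, 8.21, 7.90 and 8.03 in HSPC, 10.25, 9.66, 9.70 and 9.87 in MEG, and 10.07, 10.52, 9.95 and 9.99 in ERY. All arrays of both differentiated populations were above all HSPC arrays, and MEG and ERY overlapped. The mean was 8.11 ± 0.18 in HSPC, 9.87 ± 0.27 in MEG and 10.13 ± 0.26 in ERY (SD, n = 4). *Mafg* was 3.39-fold higher in MEG than in HSPC (log2 fold change 1.76, SE 0.19, adjusted p = 9.33e-06 by limma) and 4.07-fold higher in ERY (log2 fold change 2.02, SE 0.19, adjusted p = 1.73e-06 by limma). Without HSPC arrays 1 and 2 these changes were 1.90 and 2.17, and without arrays 3 and 4 they were 1.62 and 1.88. MEG and ERY differed by -0.26 (SE 0.19, adjusted p = 0.297 by limma).

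*Maff*, the small Maf gene known for its induction by stress and inflammation, lay near the limit for testing, 6.18, which is taken here as the array background. Its levels were 5.85, 6.59, 6.34 and 6.34 in HSPC, 6.31, 6.10, 6.69 and 6.21 in MEG, and 5.89, 5.93, 6.001 and 6.07 in ERY. For comparison, 52 of 1027 olfactory receptor genes, which these cells are not expected to use, reached at least 6.18 in a population mean, the limit for testing. The limit is thus at the upper end of these genes, whose median over the 12 arrays was 4.44. *Maff* passed that limit through its means of 6.28 ± 0.31 in HSPC and 6.33 ± 0.26 in MEG (SD, n = 4) and was below it in ERY (5.97 ± 0.08). MEG and ERY did not overlap, but the difference of 0.35 (SE 0.19, adjusted p = 0.155 by limma) did not pass, and neither did those from HSPC. Without HSPC arrays 1 and 2 the changes from HSPC were -0.012 for MEG and -0.37 for ERY, and without arrays 3 and 4 they were 0.11 and -0.25.

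*Bach1*, the gene of the heme-regulated repressor, rose in both lineages. Its levels were 8.80, 8.32, 7.71 and 7.66 in HSPC, 10.39, 9.79, 9.91 and 9.83 in MEG, and 9.24, 9.65, 9.50 and 9.50 in ERY. The 3 populations did not overlap, and within HSPC arrays 1 and 2 were above arrays 3 and 4, in the same order as for *Nfe2l2*. The mean was 8.12 ± 0.54 in HSPC, 9.98 ± 0.28 in MEG and 9.47 ± 0.17 in ERY (SD, n = 4). *Bach1* was 3.61-fold higher in MEG than in HSPC (log2 fold change 1.85, SE 0.25, adjusted p = 5.52e-05 by limma) and 2.54-fold higher in ERY (log2 fold change 1.35, SE 0.25, adjusted p = 0.000520 by limma). Without HSPC arrays 3 and 4 the change to ERY was 0.91 (adjusted p = 0.00611 by limma) and no longer 2-fold, whereas that to MEG was 1.42 and passed. MEG and ERY, although not overlapping, differed by 0.51 (SE 0.25, adjusted p = 0.122 by limma). This p value depended on the HSPC spread. With only the 8 MEG and ERY arrays fitted it was 0.0298 by limma. It was 0.0189 by limma without HSPC arrays 1 and 2 and 0.0361 by limma without arrays 3 and 4. These pass the FDR, but the difference stayed under 2-fold.

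*Bach2*, which encodes a repressor best known from B lymphoid cells, was low. Its levels were 6.59, 6.47, 6.70 and 6.58 in HSPC, 7.23, 6.62, 6.42 and 6.55 in MEG, and 6.26, 5.95, 6.18 and 5.87 in ERY. The ERY arrays lay below all others, with a mean of 6.07 ± 0.19 that is under the limit for testing, against 6.59 ± 0.09 in HSPC and 6.70 ± 0.36 in MEG (SD, n = 4). The difference was -0.52 (SE 0.19, adjusted p = 0.0333 by limma) for ERY over HSPC and 0.64 (SE 0.19, adjusted p = 0.0149 by limma) for MEG over ERY, both under 2-fold. The difference of ERY from HSPC was -0.57 (adjusted p = 0.0425 by limma) without HSPC arrays 1 and 2, but -0.47 (adjusted p = 0.123 by limma) without arrays 3 and 4, where it no longer passed the FDR. MEG over HSPC was 0.12 (SE 0.19, adjusted p = 0.618 by limma), with 0.067 and 0.17 without these pairs of arrays. The summed level of 9 B lymphoid markers was 11.3 to 11.8 in HSPC, 8.76 to 9.19 in MEG and 8.71 to 8.87 in ERY, with 6, 1 and 2 of them at or above the limit, and its part in the *Bach2* levels was not tested.

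**Figure D1:**
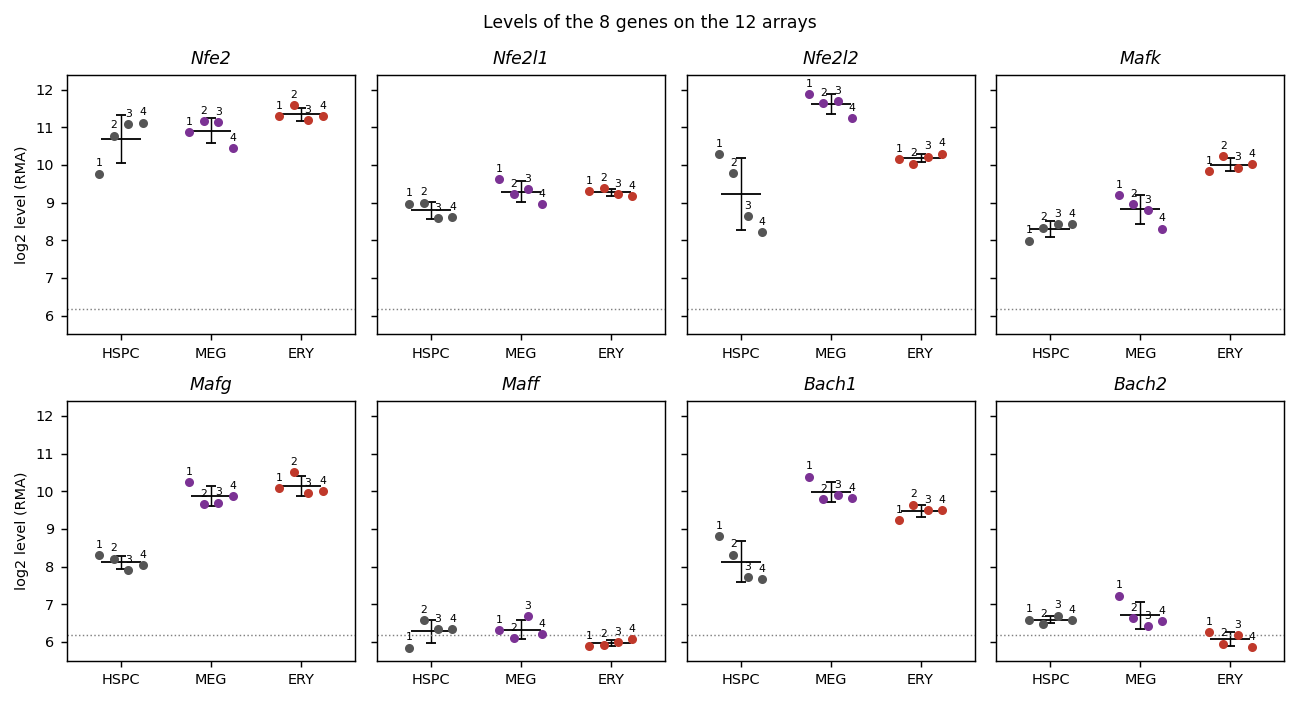
Log2 level (RMA) of each of the 8 genes on the 12 arrays, by population. Points are arrays with their number, the horizontal line is the mean and the bar 1 SD (n = 4), and the dotted line is the limit for testing at 6.18. *Nfe2l2* is highest in MEG and *Mafk* in ERY, *Mafg* and *Bach1* are above HSPC in both, and *Maff* and *Bach2* lie near the dotted line.

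The study took HSPC as the reference for expression changes along each lineage, and the members are counted here from the same reference, beside all 12066 genes tested. From HSPC to MEG, 3 of the 8 members (*Nfe2l2*, *Mafg* and *Bach1*) rose more than 2-fold at an FDR under 5% and none fell, while 32.9% of all genes tested passed these thresholds, 14.2% higher and 18.7% lower. From HSPC to ERY, 3 members (*Mafk*, *Mafg* and *Bach1*) rose and none fell, against 34.2% of all genes, 14.0% higher and 20.2% lower. *Mafg* and *Bach1* were higher in both, as were 5.32% of all genes. These comparisons share the HSPC arrays. Between MEG and ERY, *Nfe2l2* was higher and *Mafk* lower in MEG, against 27.2% of all genes, 14.6% higher and 12.6% lower.

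Without regard to size, 5 members passed the FDR from HSPC to MEG (52.5% of all genes did), 6 from HSPC to ERY (52.6%) and 3 between MEG and ERY (41.0%). The arrays did not overlap for 3, 6 and 6 members, against 40.1%, 51.1% and 48.0% of all genes. With 8 members, nothing particular to them is read from these shares. Among the members, the changes exceeded by the fewest genes were those of *Nfe2l2* in MEG, exceeded by 3.01% of genes, of *Mafg* in ERY, exceeded by 4.77%, and of *Bach1* in MEG, exceeded by 5.47%. The median change of all genes tested was -0.18, -0.12 and -0.04 in the 3 comparisons. Centring each array on ribosomal protein genes shifted all changes by 0.61 for MEG over HSPC and 0.45 for ERY over HSPC. For MEG over ERY the shift was 0.16. With this centring 5 members passed in each of the comparisons with HSPC. Every gene moved by the same amount, and the shares of all genes higher and lower under it are not given here. Nothing particular to the members is therefore read from that count. Centring on the genes tested shifted all changes by 0.09, 0.22 and -0.13. With the ribosomal centring *Nfe2l1* and *Mafk* were added for MEG, and *Nfe2* and *Nfe2l2* for ERY. Under that centring *Maff* in ERY turned from -0.31 to 0.14, and no call was turned.

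**Figure D2:**
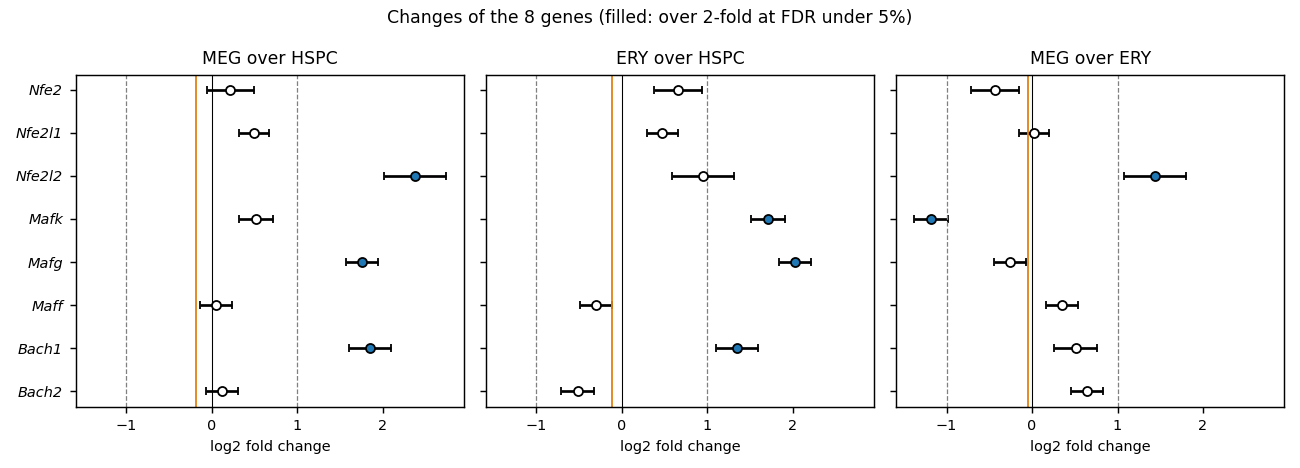
Log2 fold change of each of the 8 genes in the 3 comparisons, with bars of 1 SE from the model over 12 arrays. Filled points passed a 2-fold change at an FDR under 5%, dashed lines mark 2-fold either way, and the orange line is the median of all genes tested. *Nfe2l2* and *Mafk* are the filled points on opposite sides in MEG over ERY.

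Differences between members within an array do not depend on how arrays are scaled. Probe sets differ in response, so the size of such a difference gives no order between genes, and only its change between populations can be read. No test was run on these differences. *Nfe2* minus *Nfe2l2* ranged from 0.96 to 1.56 on the ERY arrays and from -1.02 to -0.48 on the MEG arrays. The means of MEG and ERY were thus apart by 1.87. HSPC ran from -0.52 on array 1, which reached only the top of the MEG range, to 2.90 on array 4. *Mafk* minus *Mafg* ranged from -1.56 to -0.71 in MEG, from -0.28 to 0.02 in ERY and from -0.31 to 0.53 in HSPC, so that MEG lay below both others without overlap. *Bach1* minus *Bach2* was 1.02 to 2.21 in HSPC and 2.98 to 3.69 in ERY, with MEG (3.16 to 3.49) inside the ERY range. The mean of *Bach2* in ERY is below the limit for testing, as is that of *Maff*, so the ERY values of this pair and of *Mafg* minus *Maff* rest on the array background. *Nfe2* minus *Bach1* fell from 2.57 ± 1.16 in HSPC to 1.87 ± 0.16 in ERY and 0.93 ± 0.44 in MEG (SD, n = 4), where HSPC array 1, at 0.97, lay at the MEG level.

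**Figure D3:**
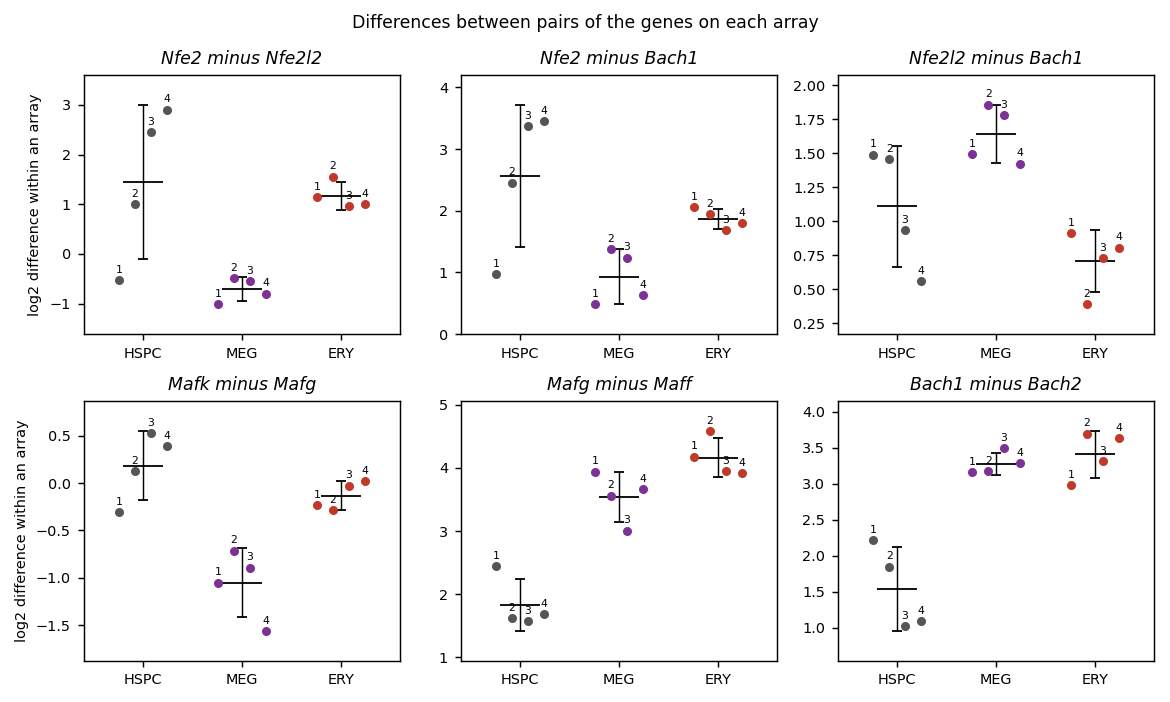
Log2 difference between 2 of the genes on the same array, for 6 pairs, by population. Points are arrays with their number, with the mean and 1 SD (n = 4), and each panel has its own scale. MEG is apart from ERY for *Nfe2* minus *Nfe2l2* and for *Mafk* minus *Mafg*, and the HSPC arrays spread widely in the pairs with *Nfe2*. ERY values of pairs with *Maff* or *Bach2* rest on the array background.

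For each of the 4 members past the thresholds, the genes with the most similar pattern were those with the smallest root mean square difference over the 12 arrays after each gene was centred on its own mean. For *Nfe2l2* they were *Itgb1*, an integrin subunit (0.154), *Apaf1*, of the apoptosome (0.170), and *Atp6v1a*, of the vacuolar proton pump (0.178). For *Mafk* they were *Septin8* (0.142), *Ehbp1l1* (0.176) and the adiponectin receptor *Adipor1* (0.177). *Mafg* was nearest to the phosphate transporter *Slc20a1* (0.171), the kinase *Pim1* (0.189) and *Mylip* (0.199), and *Bach1* to the kinase *Taok3* (0.142), the catenin *Ctnna1* (0.146) and *Gtf2e2*, of the general transcription factor TFIIE (0.151). No other member was among them.

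Genes around the factors were read from 7 lists, whose counts stand beside the shares of all genes tested. Those shares were 14.2% higher and 18.7% lower from HSPC to MEG, and 14.0% and 20.2% from HSPC to ERY. Between MEG and ERY, 14.6% were higher and 12.6% lower in MEG. A gene whose mean was at or above the limit in only 1 of the populations compared could pass the filter only through it, so counts are also given over genes at or above the limit in both, and sizes against a lower mean rest on the array background. Of the other bZIP genes, which encode large Maf proteins and the AP-1 and ATF factors that bind related cores, 12 of 15 measured were tested. From HSPC to MEG none rose and 2 fell, *Fos* (log2 fold change -2.07) and *Fosb* (-1.58), both immediate-early genes. In ERY 4 fell, among them *Jun* (-2.05), *Fos* (-1.60) and *Fosb*, and *Maf* rose (1.06). Over the 11 genes at or above the limit in both, 3 fell and 1 rose. The ERY arrays varied widely for these, with an SD of 1.31 for *Jun*, 1.46 for *Fos* and 1.56 for *Fosb*, and the count of 5 in ERY was 2 without HSPC array 2 or without ERY array 2. It was 3 without HSPC array 3, HSPC array 4, ERY array 1 or MEG array 4. The count of 2 in MEG was 1 without HSPC array 2, HSPC array 4, MEG array 2 or MEG array 4. *Maf* is also a macrophage gene, and the summed level of 11 macrophage markers was 11.96 to 12.9 in ERY, 11.6 to 11.96 in HSPC and 11.2 to 13.1 in MEG, with 11, 9 and 8 of them at or above the limit, and its part was not tested. Between MEG and ERY, *Jun* (2.03) and *Atf3* (1.31) were higher in MEG, as was 1 further gene.

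The 14 tested regulators of CNC factors act on the stability or processing of NRF1 and NRF2. Of these, 5 rose and 1 fell from HSPC to MEG, and 6 rose and 1 fell from HSPC to ERY, with medians of 0.35 and 0.53. *Cul3*, the scaffold of the ligase that degrades NRF2, rose by 1.97 on the log2 scale in MEG, from 9.16 ± 1.503 in HSPC to 11.13 ± 0.23 (SD, n = 4). *Hace1*, a ubiquitin ligase, rose by 1.66 in MEG and 3.44 in ERY, and *Btrc*, an F-box protein that recognises NRF2, by 1.77 in ERY. *Dpp3*, a peptidase that binds KEAP1, fell by 1.25 and 1.38. Without HSPC arrays 3 and 4 the counts past the thresholds were 1 in MEG and 2 in ERY, while those over all genes tested fell to 3058 and 3397. Both *Btrc* and *Hace1* were lower in MEG than in ERY, by log2 fold changes of -2.004 and -1.78.

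Genes known as targets of NF-E2 in megakaryocytes were high in MEG. Of 7 measured genes 6 were tested, and the other, *Hsd3b1*, was below the limit in all populations, with its highest mean, 6.15, in ERY. The 6 were higher in MEG than in HSPC and in ERY, but *Casp12* reached the limit in MEG only, so that its direction was fixed by the filter. Of the genes at or above the limit in both, 5 of 5 were higher in MEG than in HSPC and 4 of 4 higher than in ERY, *Itga2b* included. *Rab27b*, a GTPase of platelet granules, was at 6.46 ± 0.37 in HSPC, 5.94 ± 0.19 in ERY and 11.87 ± 0.07 in MEG (SD, n = 4). From HSPC to MEG this was a 42.6-fold rise (log2 fold change 5.41, SE 0.19, adjusted p = 4.59e-10 by limma), a size that rests on an HSPC level close to the limit of 6.18. *Tbxas1*, thromboxane synthase, rose by 3.93. *Itga2b* encodes CD41, on which MEG were purified, so that its level in MEG is no finding. From HSPC to ERY, *Lims1* (1.52) and the platelet tubulin gene *Tubb1* (1.19) rose and *Itga2b* fell (-1.29), and without HSPC arrays 3 and 4 the count past the thresholds was 1 in place of 3. The log2 fold change of *Nfe2* itself to MEG was 0.22, as given above.

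Targets in erythroid cells were high in ERY. The 5 tested were higher in ERY than in HSPC and in MEG, but *Hbb-bh1* reached the limit in ERY only, and its direction was fixed by the filter. Of the genes at or above the limit in both, 4 of 4 rose from HSPC to ERY, and 3 of 3 were lower in MEG than in ERY. *Alas2*, which begins heme synthesis in red cells, was at 6.43 ± 0.18 in HSPC, 6.11 ± 0.41 in MEG and 12.83 ± 0.05 in ERY (SD, n = 4). Its rise to ERY was 84.2-fold (log2 fold change 6.40, SE 0.20, adjusted p = 1.64e-10 by limma), a size that rests on an HSPC level close to the limit of 6.18. The embryonic globin gene *Hbb-bh1* rose by 5.92, from a level of 4.92 in HSPC that is near the olfactory receptor median of 4.44. In MEG *Hbb-y* (-3.45) and *Hba-x* (-2.84) fell from HSPC. The adult globins were not analysed here, and both *Alas2* and *Hbb-bh1* are also among the erythroblast markers.

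Targets of NRF2 went both ways, as did all genes tested, of which 14.2% rose and 18.7% fell from HSPC to MEG. From HSPC to MEG, where *Nfe2l2* rose, 5 of 23 rose and 5 fell, and over the 17 genes at or above the limit in both, 2 rose and 3 fell. *Slc7a11*, the cystine transporter (3.46), and *Nqo1*, a quinone reductase (3.42), rose, and the conjugating enzyme *Gstm1* (-3.11) and *Cbr1* (-1.74) fell. From HSPC to ERY 7 rose and 5 fell, among them *Nqo1* (3.32), the glutathione synthesis gene *Gclm* (3.23) and the export pump gene *Abcc1* (-2.34), and over the 19 genes at or above the limit in both, 4 rose and 5 fell. Between MEG and ERY, 4 were higher in MEG, among them *Slc7a11* (3.51) and *Abcc1* (3.31), and 5 lower, among them *Gsta4* (-3.44), or 3 and 2 of the 19 genes at or above the limit in both. *Slc7a11* was at 4.90 in HSPC and 4.85 in ERY, *Nqo1* at 5.497 in HSPC, and *Cbr1* at 5.70 and *Gsta4* at 5.76 in MEG, all below the limit, so that the sizes of these changes rest on the array background. *Gstm1* and *Gsta4* are also liver genes, and the hepatocyte markers were highest in ERY and lowest in MEG (9, 9 and 2 of 9 at or above the limit in HSPC, ERY and MEG). Their part in these differences was not tested.

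Heme-responsive targets of BACH1 rose in ERY, where 8 of 14 rose and none fell, and 7 of the 12 at or above the limit in both rose. They included *Alas2*, *Fech*, the enzyme that inserts iron into heme (4.23), *Gclm* and *Nqo1*, and *Bach1* itself was 2.54-fold higher there. *Alas2* and *Fech* are also in the list of erythroid targets above, and *Gclm* and *Nqo1* in that of NRF2 targets, so the lists are not independent. In MEG, where *Bach1* was 3.61-fold above HSPC, none fell past both thresholds and 3 rose past them, of which 1, *Gclm*, was at or above the limit in both. Those 3 were *Slc7a11*, *Nqo1* and *Gclm*, which are NRF2 targets as well. The count was 6 without MEG array 3 and 5 without HSPC arrays 3 and 4. Between MEG and ERY, 6 were lower in MEG, led by *Alas2* (-6.72) and the iron exporter gene *Slc40a1* (-3.94), and *Slc7a11* was higher, while of the 12 at or above the limit in both, 5 were lower and none higher. *Alas2* was below the limit in MEG. *Slc40a1* is known from macrophages too, whose markers reached 13.1 on MEG array 3 and 12.9 in ERY as given above, and the part of such cells was not tested.

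Proteasome genes, known targets of NRF1, moved little. Of 33 tested, 1 rose and 4 fell from HSPC to MEG, with a median of -0.20, and 5 rose and none fell from HSPC to ERY, with a median of 0.09. *Psme4*, an activator of the proteasome, rose in both, by 2.55 and 3.17, from an HSPC level of 8.02 with an SD of 1.40. *Psmc4* (-1.28) and the assembly factor gene *Pomp* (-1.12) fell in MEG, *Psmc6* rose in ERY (1.80), and *Psmc5* was lower in MEG than in ERY (-1.11). These counts moved with single arrays. That of 5 in ERY was 8 without HSPC array 1 and 3 without array 3 or array 4, and that of 5 in MEG was 9 without HSPC array 1 and 3 without MEG array 1 or MEG array 4. Without HSPC arrays 1 and 2 they were 9 in ERY and 11 in MEG, and without arrays 3 and 4 they were 1 and 2.

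**Figure D4:**
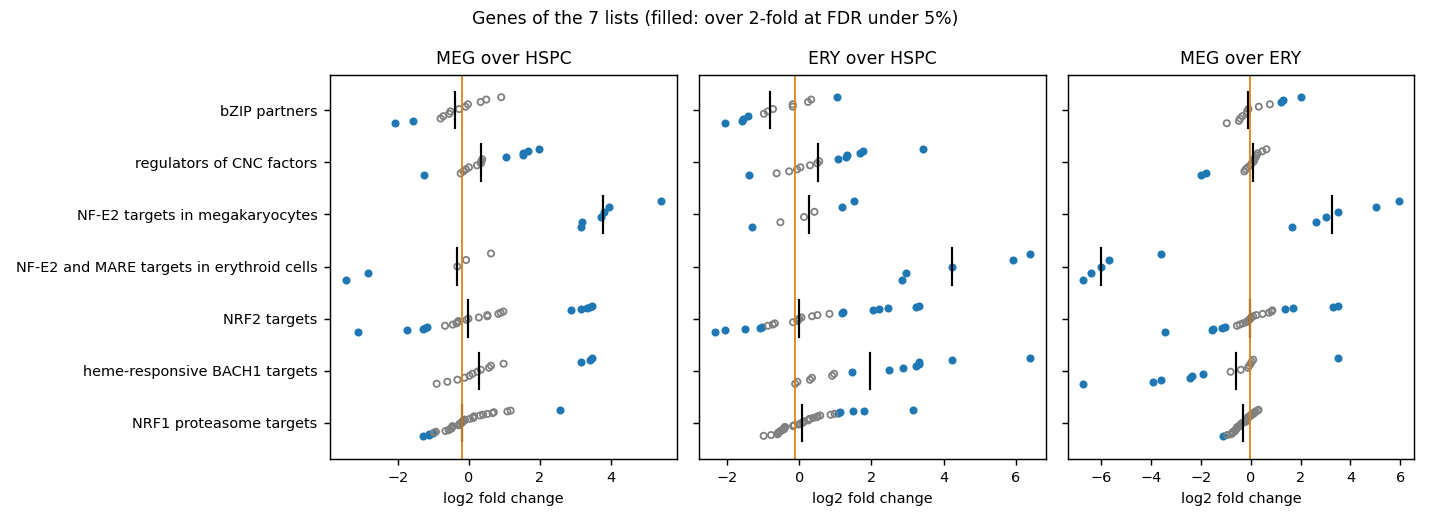
Log2 fold changes of the tested genes of 7 lists around the 8 factors, in 3 comparisons. Each point is a gene, filled where it passed a 2-fold change at an FDR under 5%, the black bar is the median of the tested genes of the list, including those below the limit in 1 of the populations, and the orange line the median of all genes tested, and each panel has its own scale. Known NF-E2 targets lie to the right for MEG in the megakaryocyte list and for ERY in the erythroid list, while NRF2 targets lie on both sides.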

How the data were processed

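RNA of HSPC, MEG and ERY from mouse fetal liver was hybridized to 12 GeneChip Mouse Gene ST arrays, 4 biological replicates to a population. The authors summarized the arrays by RMA, a method that corrects background, equalizes arrays and combines probes, and deposited a log2 value of each probe set on each array; for RMA, the sources used here give no version or settings. The array medians were 5.99 to 6.25. Arrays give no counts, so their number limits the precision. The sources used here do not say whether replicates came from separate litters, and p values measure the spread between these samples.

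Of 34760 probe sets, 21640 carry 1 gene symbol in the platform's annotation, 1321 carry several and 11799 carry none or are not listed; only the first were used. They name 19937 genes, 954 with more than 1 such probe set, of which the one with the highest mean over the 12 arrays was taken. Each of the 8 members has 1 such probe set. Genes were tested if their highest population mean reached 6.18, the 95th percentile of the same value over 1027 olfactory receptor genes. This kept 12066 genes and all 8 members. No column of sample values was left out (0).

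Models of limma 3.58.1 (lmFit and eBayes, R 4.3.3) were fitted to all 12 arrays, with 1 mean per population, and p values were adjusted by Benjamini-Hochberg over the genes tested. Thresholds were a 2-fold change and an FDR of 5%. The fits were tested on simulated data. Named genes are the 8 members, up to 2 genes each way with the largest change past the thresholds in each list and comparison, and the 3 genes nearest in pattern to each member past the thresholds; a few further list members, *Fosb*, *Fech*, *Gclm*, *Nqo1* and *Tbxas1* among them, are repeated where the same list is read in another comparison. The members and lists were chosen with earlier results of these data known. Promoter windows came from RefSeq (GRCm38.p6), which gave 13 windows for 7 members; *Nfe2* has none there. Motifs were searched on both strands.

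Each result was recomputed with a fit restricted to the 8 arrays compared; with a replicate block; leaving out each array, HSPC arrays 1 and 2, or HSPC arrays 3 and 4; no filter or a filter at the median of all probe sets; quantile normalization; centring on ribosomal protein genes or on the genes tested; averaging the probe sets of a gene; array weights; a trended robust variance; a 1.5-fold threshold; and an FDR of 1%. Of 12 pairs of arrays with the same replicate number, 5 correlated above 0.1 in their deviations, so the numbers were not taken to pair the arrays. Python 3.11.15 was used with pandas 2.3.3, numpy 2.4.6 and matplotlib 3.10.9. Chromatin data were not analysed here.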

Additional observations from a re-analysis of the deposited data

Results flagged for a closer look

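For 2 members the change from HSPC differed between the lineages, by the test of the difference itself, which is the comparison of MEG with ERY. The *Nfe2l2* change was larger in MEG than in ERY by 1.44 on the log2 scale (SE 0.36, adjusted p = 0.00565 by limma), with all 4 MEG arrays above all 4 ERY arrays. The *Mafk* change was smaller in MEG than in ERY, by a log2 difference of -1.19 (SE 0.20, adjusted p = 0.000300 by limma), with all 4 MEG arrays below all 4 ERY arrays. No single array lay far enough from its group to be picked out in any of the 24 groups of 4 arrays formed by the 8 members and 3 populations. The rule took the gap of the outermost array to the next one as a share of the range. It cannot pick out a split such as that of HSPC arrays 1 and 2 from arrays 3 and 4 for *Nfe2l2* and *Bach1*.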

How the results depend on the processing

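Of 624 changes of the members recomputed (24 changes under 26 alternatives), 598 kept their direction and their side of the thresholds, 12 newly passed, 1 no longer passed and 13 turned direction. The calls between MEG and ERY (*Nfe2l2* higher, *Mafk* lower) held under all 26 alternatives. Several of these could not alter the size of a change. Leaving out HSPC arrays could change only the p values of these calls. Other filters, the replicate block, the fit to the arrays compared, trended variance and the stricter FDR left every member's log2 fold change unchanged. Averaging probe sets could not change a member's levels, since each has 1 such probe set. A threshold of 1.5-fold could not remove a call past the main thresholds. The 624 changes include those under these settings. The change between MEG and ERY without single arrays ranged from 1.35 to 1.56 for *Nfe2l2* and from -1.31 to -1.02 for *Mafk*. Members past the thresholds numbered 3 without any single array for MEG over HSPC, 3 to 4 for ERY over HSPC, and 2 for MEG over ERY. With centring on ribosomal protein genes they numbered 5 in each comparison with HSPC. All genes shifted upward alike under that centring, so this rise is not read as particular to the members. Genes past the thresholds without single arrays ranged from 3543 to 4732 for MEG over HSPC, from 3783 to 4772 for ERY over HSPC, and from 3169 to 3353 for MEG over ERY. The replicate numbers were not taken to pair the arrays, and whether they do is not known. With the replicate block the genes past the thresholds were 3988, 4133 and 3296, and no call of a member changed. Besides the changes given in the report, *Bach2* passed between MEG and ERY (0.64) at a threshold of 1.5-fold, as did *Nfe2l2* from HSPC to ERY (0.95), which also passed at 1.40 and 1.17 with centring on ribosomal protein or tested genes and at 1.57 with array weights.

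The changes that turned direction had passed no threshold, and their causes were not tested. For MEG over HSPC they were *Bach2* at -0.056 without MEG array 1 (0.21 at most without another single array) and -0.099 with array weights; *Maff* at -0.095 without HSPC array 1 (0.15 at most), -0.074 without MEG array 3, -0.012 without HSPC arrays 1 and 2 and -0.087 with array weights; and *Nfe2* at -0.088 without HSPC array 1 (0.37 at most) and -0.20 without HSPC arrays 1 and 2. For MEG over ERY, *Nfe2l1* was at -0.016 without ERY array 4, -0.091 without MEG array 1 (0.13 at most), -0.0026 without MEG array 3 and -0.11 with centring on the genes tested. For ERY over HSPC, *Maff* was at 0.14 with centring on ribosomal protein genes. For *Maff* and *Bach2*, levels close to the limit for testing restrict what can be seen.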
